A study of Homo sapiens with 8 samples.

Results

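H1975 is an established human lung adenocarcinoma line. Here its RNA was sequenced from pneumospheres, floating spheres that select for cells able to grow without attachment, and set against spheres of the other lines of the study. Of the 8 libraries in all, the 2 labelled H1975 were compared with the 6 of H23, EBC1 and H820. By their labels H1975, H23 and H820 are adenocarcinoma lines and EBC1 is a squamous cell carcinoma line. Each line gave 1 library of untreated spheres and 1 of spheres exposed for 15 min to 25 µg/ml of PD-L1s, which is soluble PD-L1 made synthetically, without serum (PD-L1 is a ligand that restrains T cells). All spheres were grown in serum-free medium with fibroblast and epithelial growth factors and the supplement B-27, on surfaces that cells do not attach to. A line is a single tumour's descendant and nothing in the labels names separate cultures, so p-values here reflect how far a line's own libraries lie apart, which may be technical, and not how tumours vary.

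Libraries of H1975 held 23751862 (untreated) and 22241208 (PD-L1s) counts, against 5559870 to 27524854 in the other lines, of which the untreated EBC1 and H820 libraries were the shallow ones. Across the 24185 genes tested, log2 levels of the H1975 libraries correlated with each other at Pearson r = 0.996 and with those of the other lines at 0.821 to 0.890; genes are not independent replicates. Levels are given as CPM, counts scaled to a common library total after TMM, a scaling that evens out composition. Differences are log2, H1975 minus the mean of the log2 levels of the other lines, with their standard error (SE). A gene was called at an adjusted p under 0.05, and "past 2-fold" where a stricter test against a change of 2-fold passed the same threshold. Established lines differ in a large share of their genes. By the first rule 31% of genes tested were higher and 22.6% lower in H1975, and past 2-fold 13% were higher and 6.24% lower. Without the treated H1975 library the genes called lower numbered 3443, against 5469 with it. In 16.8% of genes both H1975 libraries lay above all the other 6, and in 11.9% below. The median difference over all genes was 0.032.

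Lung tumours are sorted in part by the lineage regulators they keep. TP63 is a transcription factor that holds basal and squamous cells in their state, and NKX2-1 is the homeodomain factor of alveolar cells and of most lung adenocarcinomas; a tumour usually keeps one of them. Interferon-stimulated genes are the antiviral genes switched on when interferon receptors signal through JAK kinases to STAT proteins and IRF9. Germline genes, among them those of meiosis and of the piRNA pathway that silences mobile DNA, are normally kept off outside the gonads and are switched on in some tumours.

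H1975 spheres carried RNA of both lineage regulators. TP63, on chromosome 3 at 189349216 to 189615068 (GRCh37), had 87.2 CPM in untreated and 86.7 in PD-L1s-treated H1975. It had 1.89 and 1.26 CPM in H23, 0.192 and 0.314 in EBC1, and 0 and 0.372 in H820. The squamous line EBC1 was thus among the lines with little TP63 RNA. The difference was 7.37 ± 0.19 (SE; adjusted p against 2-fold = 7.51e-15). NKX2-1, on chromosome 14 at 36985597 to 36990354, had 78.4 and 75.2 CPM in H1975, against 5.46 and 5.68 in H23, 0 and 0.224 in EBC1, and 35.6 and 54.0 in H820. H1975 was again highest, but the closest line, H820, differed from it by 0.78, and the difference from the mean, 4.44 ± 0.172 (adjusted p against 2-fold = 4.36e-12), rested on EBC1 and H23. These are levels in pooled spheres, so cells that hold both factors and a mixture of cells that hold one each cannot be told apart.

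**Figure D1:**
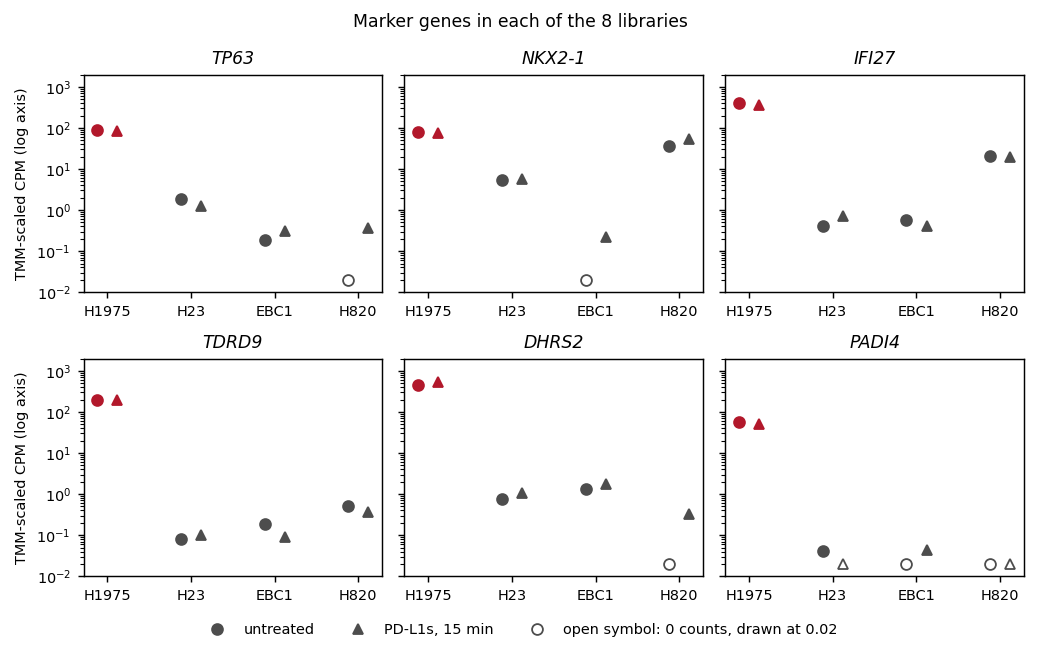
Level of each marker gene, in TMM-scaled CPM on a log axis, in the 8 libraries; circles are untreated spheres, triangles PD-L1s-treated spheres, H1975 in red, and open symbols at 0.02 stand for 0 counts. TP63, TDRD9, DHRS2 and PADI4 lie at or below 1.89 CPM in every library of the other lines, while NKX2-1 reaches 54.0 and IFI27 reaches 21.2 in H820.

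Basal and squamous genes that lie around TP63 were partly shared. Of 34 listed genes 25 passed the filter on low counts. Of these 20 were called higher and 2 lower in H1975 (31% and 22.6% of genes tested). Past 2-fold 13 were higher and 0 lower (13% and 6.24% of genes tested), with a median of 1.907. FAT2, a giant cadherin of squamous epithelium, had 143 and 140 CPM in H1975, against 0.361 and 0.352 in H23, 0.384 and 0.0897 in EBC1 and 2.37 and 2.14 in H820 (difference 8.14 ± 0.163, adjusted p against 2-fold = 1.96e-16). Its level in H1975 did not overlap that in any other library.

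KRT17, a keratin of activated basal cells with a near-identical pseudogene copy, reached 10.2 and 10.8 CPM in H1975, against 0 to 3.05 elsewhere (5.18 ± 0.298). CLCA2, a membrane protein of stratified epithelium, had 10.6 and 12.5 CPM, against 0.179 to 0.508 elsewhere (5.17 ± 0.259). ITGB4, a hemidesmosome integrin, had 268 CPM in both H1975 libraries and 29.4 to 129 in the others (2.20 ± 0.114).

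The keratins and desmosome genes of the list were split, with some near 0. KRT15, a basal keratin, had 43.0 and 43.9 CPM in H1975, against 1.06 to 25.3 elsewhere. DSC2, a desmocollin, had 193 and 191 CPM in H1975, against 76.9 to 291 elsewhere, and PERP, a desmosome protein, 297 and 307 CPM, against 199 to 558. KRT5 had 0.0437 and 0.0472 CPM in H1975 and at most 0.0465 elsewhere, and KRT14 had 0.0437 and 0.141 CPM in H1975. DSG3 had 0.131 and 1.08 CPM and PKP1 0 and 0.472 CPM in H1975, and KRT5, KRT14, DSG3 and PKP1 all failed the filter on low counts. KRT6A had 2 counts in untreated and 119 in treated H1975, a gap within the line with no replicate check. SOX2, the squamous lineage factor that is often amplified together with TP63, had 4.98 and 4.06 CPM in H1975, against 5.78 to 15.6 in the other lines, and was called lower (-1.09 ± 0.176) though not past 2-fold. COL17A1, a hemidesmosome collagen, had 105 and 108 CPM in H1975, but 93.5 and 116 in H820, so its difference of 3.76 ± 0.131 came from H23 and EBC1.

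Alveolar and adenocarcinoma genes were as uneven. Of 30 listed, 26 were tested, with 15 higher and 5 lower (31% and 22.6% of all genes). Past 2-fold 10 were higher and 4 lower (13% and 6.24% of all genes), with a median of 0.789. MUC1, an epithelial mucin, led with 740 and 761 CPM in H1975, against 11.7 to 62.3 elsewhere (4.87 ± 0.137, adjusted p against 2-fold = 2.73e-14). SFTA3, the neighbour of NKX2-1 on the same strand at 36942493 to 36983034, had 16.8 and 14.9 CPM in H1975, against 0.321 and 0.402 in H23, 0 and 0 in EBC1 and 10.2 and 12.4 in H820. CTSH, a protease that processes surfactant protein, had 78.1 and 77.0 CPM, against 15.1 to 23.3 elsewhere (1.99 ± 0.116).

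The surfactant genes that mark alveolar cells were not part of this. SFTPA1 and SFTPC had 0 counts in both H1975 libraries, and SFTPB 0.0437 and 0.283 CPM. FOXA1, a pioneer factor that works with NKX2-1, was lower, with 0.873 and 1.18 CPM in H1975, against 3.97 and 4.22 in H23, 33.8 and 44.1 in EBC1 and 97.6 and 137 in H820 (-4.69 ± 0.197, adjusted p against 2-fold = 6.44e-12). Its relative FOXA2 had 15.0 and 15.1 CPM in H1975 and 17.3 and 24.2 in EBC1, but at most 0.325 in H23 and H820. Against single lines, 16 alveolar members were higher and 3 lower than in H23 (30.8% and 31.8% of all genes), 9 and 6 against EBC1 (28.2% and 24.4%), and 8 and 9 against H820 (27.4% and 27.2%). The counts against H820 were near the shares over all genes.

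Lists of other lineages were mixed. Of 16 airway genes 8 were tested, with 2 higher and 2 lower, near the shares over all genes; the list summed to 85.4 and 86 CPM in H1975, against 29.1 and 32.2 in H23, 291 and 322 in EBC1 and 335 and 499 in H820. The secretoglobin genes SCGB1A1, SCGB3A1 and SCGB3A2 had 0 counts in both H1975 libraries. Of 20 gut and liver genes 11 were tested, with 1 higher and 5 lower (31% and 22.6% of all genes). The gut and liver list summed to 5.24 and 5.23 CPM in H1975, against 10.2 to 313 in the other libraries. Of 16 neuroendocrine genes 10 were tested, with 3 higher and 2 lower, again near the shares over all genes, and the list summed to 299 and 300 CPM in H1975, against 899 and 805 in H23, 912 and 1110 in EBC1 and 129 and 210 in H820. NEUROD1 had 0 counts in H1975.

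Epithelial and mesenchymal genes were present together in H1975. All 25 epithelial genes were tested, with 24 called higher and 0 lower (31% and 22.6% of all genes). Past 2-fold 19 were higher and 0 lower (13% and 6.24% of all genes), with a median of 2.013. The difference lay against H23, where epithelial genes were low. Against H23 the count was 24 higher and 0 lower (30.8% and 31.8% of all genes), with a median of 6.568. Against EBC1 it was 7 and 7 (28.2% and 24.4%), with a median of -0.041. Against H820 it was 11 and 6 (27.4% and 27.2%), with a median of 0.128. Without H23, 2 members were higher and 3 lower past 2-fold. CDH1, the adhesion molecule of epithelia, had 844 and 860 CPM in H1975, 2.01 and 1.66 in H23, 1130 and 1290 in EBC1 and 332 and 498 in H820. CDH3, the placental cadherin of basal cells, stood apart from every line with 821 and 840 CPM, against 6.5 to 369 elsewhere (3.72 ± 0.134).

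Of 20 mesenchymal genes 19 were tested, with 10 higher and 3 lower (31% and 22.6% of all genes). Past 2-fold 10 were higher and 1 lower (13% and 6.24%), and 7 lay above all other libraries (16.8%). Against H23 8 were higher and 10 lower (median -0.79), against EBC1 11 and 4 (0.682) and against H820 9 and 3 (2.084). Over all genes the shares against these lines were 30.8% and 31.8%, 28.2% and 24.4%, and 27.4% and 27.2%. SPARC, a matrix protein, had 165 and 168 CPM in H1975, against 0.442 and 0.251 in H23, 0 and 0.0448 in EBC1 and 5.93 and 22.4 in H820 (8.19 ± 0.28). LOX, the collagen crosslinking enzyme, had 767 and 742 CPM, against 2.13 to 343 elsewhere (5.66 ± 0.166). TGFBI, a matrix protein induced by TGF-beta, had 782 and 780 CPM, against 0.855 to 295 (4.49 ± 0.169).

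SNAI1, a repressor of CDH1, had 57.3 and 62.0 CPM in H1975 and 4.91 to 12.2 elsewhere (2.91 ± 0.171). The other regulators of the list did not share this. TWIST1 and TWIST2 had 0 counts in H1975, CDH2 had 0.0873 and 0 CPM, and ZEB1 had 5.54 and 4.57 CPM, against 30.8 and 31.9 in H23. VIM, the mesenchymal filament gene, had 442 and 446 CPM in H1975, 904 and 822 in H23, 255 and 299 in EBC1, and 1.69 and 2.28 in H820, so its call of higher (2.48 ± 0.138) turned to -0.14 without H820.

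**Figure D2:**
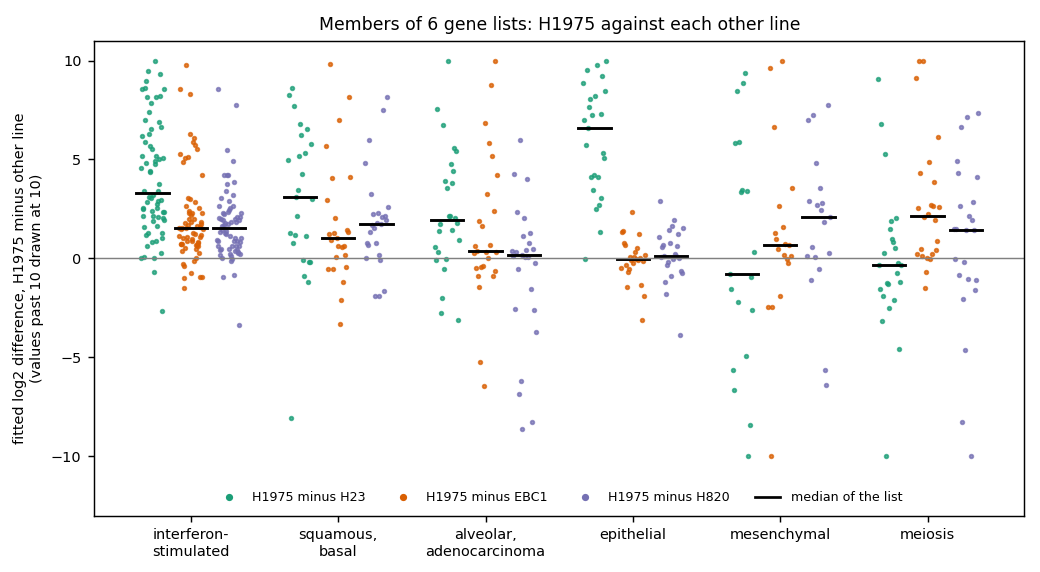
Fitted log2 difference of each tested member of 6 gene lists, H1975 minus H23, EBC1 or H820; each point is a gene, the black bar is the median of the list, and values past 10 in either direction are drawn at 10 because fits against lines with 0 counts depend on the prior count. Interferon-stimulated genes have medians of 3.315, 1.530 and 1.551 in the order H23, EBC1, H820, while epithelial genes have 6.568, -0.041 and 0.128.

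Interferon-stimulated genes were mostly higher in H1975. Of 69 listed genes 68 were tested, with 62 called higher and 1 lower (31% and 22.6% of all genes). Past 2-fold 52 were higher and 1 lower (13% and 6.24% of all genes), with a median of 2.345. In 53 of the 68 both H1975 libraries lay above all the other 6, as in 16.8% of all genes. The list held against each line on its own, with 62 higher and 2 lower against H23 (30.8% and 31.8% of all genes). It had 56 and 5 against EBC1 (28.2% and 24.4%) and 54 and 3 against H820 (27.4% and 27.2%). Summed over the list, H1975 had 7820 and 8140 CPM, against 1840 and 1840 in H23, 2850 and 3190 in EBC1 and 3010 and 3530 in H820. H23 was the lowest line for many members, and without it 34 members were past 2-fold higher.

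IFI27, a mitochondrial protein gene that interferon induces strongly, on chromosome 14 at 94577079 to 94583035, had 415 and 366 CPM in H1975, against 0.402 and 0.704 in H23, 0.576 and 0.403 in EBC1 and 21.2 and 20.1 in H820 (7.82 ± 0.15, adjusted p against 2-fold = 1e-16). RSAD2, which encodes the antiviral enzyme viperin, had 15.9 and 17.8 CPM in H1975 and at most 0.384 elsewhere (6.73 ± 0.277). OAS2, a sensor of double-stranded RNA, had 85.7 and 85.3 CPM, against 0.201 to 3.73 (6.28 ± 0.156). These 3 had no overlap between H1975 and any other library.

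Start regions of many interferon-stimulated genes hold the element through which such genes are known to respond. It reads GAAA, any 2 bases, GAAA, is bound by IRF9 with its STAT partners and by other IRF proteins, and was searched on both strands in RefSeq promoters (GRCh38.p14, 250 bases before to 50 after the start). A match was found in 38 of the 56 interferon-stimulated genes that the table holds (67.9%), against 1195 of all 27305 genes (4.38%). It did not sort the members by their difference: 28 of 42 past 2-fold higher had it (66.7%), and 10 of the 14 others (71.4%). The promoters of IFI27 (chr14:94110486-94110785, plus strand), RSAD2 (chr2:6877527-6877826, plus strand) and IFI6 (chr1:27672143-27672442, minus strand) are shown, with matches in capitals, read as TTTC, any 2 bases, TTTC where the match is on the opposite strand; IFI27 has 2 matches, RSAD2 1 and IFI6 3.
IFI27: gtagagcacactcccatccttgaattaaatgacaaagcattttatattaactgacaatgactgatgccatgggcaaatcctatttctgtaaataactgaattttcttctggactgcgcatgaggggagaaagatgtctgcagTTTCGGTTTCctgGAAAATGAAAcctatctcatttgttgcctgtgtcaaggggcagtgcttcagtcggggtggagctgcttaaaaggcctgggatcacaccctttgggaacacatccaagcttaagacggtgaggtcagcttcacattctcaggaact
RSAD2: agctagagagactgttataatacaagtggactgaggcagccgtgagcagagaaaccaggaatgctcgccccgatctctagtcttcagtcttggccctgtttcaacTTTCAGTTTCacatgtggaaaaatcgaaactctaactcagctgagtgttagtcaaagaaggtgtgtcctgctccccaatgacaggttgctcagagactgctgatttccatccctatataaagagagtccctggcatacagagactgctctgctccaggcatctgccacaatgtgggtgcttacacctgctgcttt
IFI6: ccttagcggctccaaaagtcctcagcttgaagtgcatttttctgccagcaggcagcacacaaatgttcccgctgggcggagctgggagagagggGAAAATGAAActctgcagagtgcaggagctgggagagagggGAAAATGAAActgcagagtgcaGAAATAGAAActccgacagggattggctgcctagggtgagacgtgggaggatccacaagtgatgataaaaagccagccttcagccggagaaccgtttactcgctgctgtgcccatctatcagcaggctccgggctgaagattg
In IFI27 the first match begins 108 bases and the second 95 bases before the start, on opposite strands. In IFI6 the 3 matches begin 156, 115 and 93 bases before it. Where a gene had several windows, the window with most matches is shown. The other RSAD2 window (chr2:6865635-6865934, plus strand) held 0 matches.

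Antiviral effectors of other kinds were higher too. IFI6, a survival factor of the IFI27 family, had 200 and 208 CPM in H1975, against 4.42 to 25.7 elsewhere (3.87 ± 0.122). MX1, a dynamin-like GTPase that blocks influenza virus, had 111 and 119 CPM, against 1.75 to 38.1 (4.22 ± 0.133). IFITM1, a membrane protein that hinders virus entry, had 163 and 156 CPM, against 0.538 to 51.6 (6.17 ± 0.237).

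IFIT1, which binds foreign RNA caps, had 106 and 118 CPM in H1975, against 1.67 to 14.4 elsewhere (4.32 ± 0.159). It lies in a chromosome 10 stretch (90973326 to 91180758) in which 5 neighbouring genes tested, LIPA, IFIT2, IFIT3, IFIT1 and IFIT5, were all past 2-fold higher and above every other library. BST2, the tether that holds budding viruses, had 66.2 and 72.4 CPM in H1975, at most 0.201 in H23 and EBC1 and 35.9 and 40.4 in H820 (5.99 ± 0.161). IFI16, a DNA sensor, had 370 and 388 CPM, against 1.11 to 85.6 (4.36 ± 0.123).

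Genes that carry the interferon signal differed to unequal degrees. STAT2, a carrier of the type I interferon signal, had 123 and 124 CPM in H1975, against 36.9 to 120 elsewhere (0.95 ± 0.118), and was called higher but not past 2-fold. IRF9, whose reads cannot be told from an overlapping readthrough gene, had 91.6 and 97.8 CPM, against 24.9 to 44.9 (1.62 ± 0.108). IRF7, the amplifier of the type I response, had 74.5 and 67.3 CPM, against 7.35 to 18.1 (2.62 ± 0.135).

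TNFSF10, which encodes the death ligand TRAIL, was the only member called lower, with 4.45 and 6.79 CPM in H1975, against 10.4 to 77.1 elsewhere (-2.32 ± 0.206). The chemokine gene CXCL10 had 0.262 and 0.236 CPM in H1975 and failed the filter. Between the H1975 libraries, members with at least 50 counts in both differed by log2 -0.23 to 0.61, PD-L1s over untreated, so the high level was already present without treatment.

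**Figure D3:**
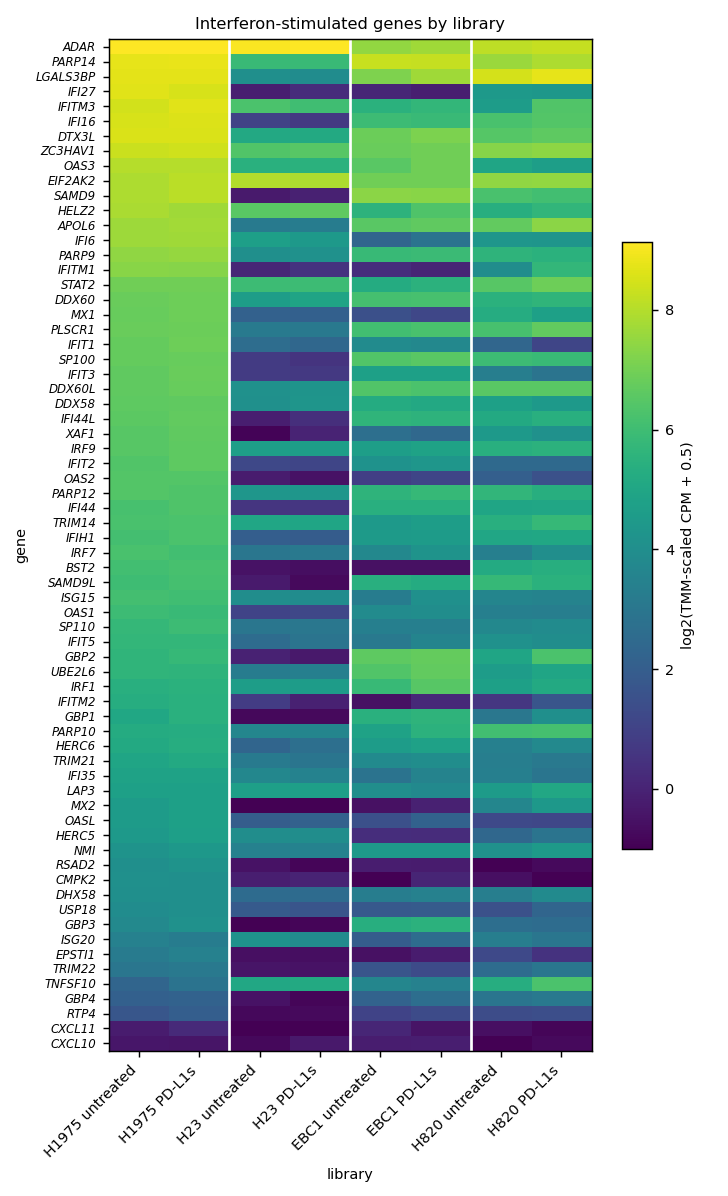
Level of 68 of the 69 interferon-stimulated genes, as log2(TMM-scaled CPM + 0.5), in the 8 libraries, ordered by their mean in H1975. The H1975 columns are the brightest in most rows, and the H23 columns the darkest in many; TNFSF10 runs the other way, with 4.45 and 6.79 CPM in H1975 against up to 77.1 in H820.

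Ligands, receptors and sensors did not follow. Of 26 such genes 21 were tested, with 8 higher and 9 lower (31% and 22.6% of all genes). Past 2-fold 3 were higher and 1 lower (13% and 6.24% of all genes), with a median of -0.229. IFNB1 and the interferon lambda genes failed the filter, and IFNE, an interferon of epithelia, had 3.58 and 2.92 CPM in H1975, against 14.1 and 5.11 in H820 and at most 0.961 in H23 and EBC1. TMEM173, which encodes the DNA-sensing adaptor STING, had 64.1 and 63.4 CPM in H1975, against 0.482 to 33.3 elsewhere (3.42 ± 0.16). IRF5, a factor downstream of nucleic acid sensing, had 41.8 and 37.0 CPM, against 1.15 to 13.4 (3.08 ± 0.16). IFNAR2, a chain of the type I interferon receptor, had 15.4 and 16.8 CPM in H1975, against 18.4 to 191 elsewhere (-1.59 ± 0.132).

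Antigen presentation genes differed by line. Of 22 class I and peptide loading genes 12 were higher and 5 lower (31% and 22.6% of all genes). Past 2-fold only 3 were higher, near the 13% of all genes, and 0 lower (0 higher without H23 and 7 without EBC1). Against H23 16 were higher and 1 lower (30.8% and 31.8% of all genes). Against EBC1 it was 0 and 14 (28.2% and 24.4%) and against H820 10 and 3 (27.4% and 27.2%). B2M, the light chain of class I molecules, had 569 and 638 CPM in H1975, 148 and 153 in H23, 2280 and 2310 in EBC1 and 645 and 933 in H820. CD274, the gene of PD-L1 itself, had 9.30 and 11.8 CPM in H1975, a middle place between H23 (0.201 and 0.101), EBC1 (12.7 and 12.8) and H820 (24.4 and 45.3). Its difference from the mean, 1.35 ± 0.216, turned to -1 without H23.

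Germline genes differed one by one, some with high RNA in H1975 and others at 0. TDRD9, a helicase with a Tudor domain that acts in the piRNA pathway of testis, lies on chromosome 14 at 104394799 to 104519004. It had 201 and 195 CPM in H1975, against 0.0803 and 0.101 in H23, 0.192 and 0.0897 in EBC1 and 0.508 and 0.372 in H820 (10.21 ± 0.17, adjusted p against 2-fold = 2.88e-17). Of the 28 piRNA pathway and Tudor genes listed only 15 were tested. Of these 6 were higher and 3 lower, near the 31% and 22.6% of all genes. Past 2-fold 6 were higher and 1 lower (13% and 6.24% of all genes), and the median was 0.317. With the DESeq2 test, limma-voom or thinned libraries 3 were past 2-fold higher. GPAT2, a mitochondrial enzyme needed for piRNAs in mice, had 8.86 and 9.43 CPM in H1975 and 0 counts in every other library but one at 0.0465 CPM; part of its transcript has a near-identical pseudogene.

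PIWIL2, a piRNA-binding protein, reached 3.01 and 2.45 CPM in H1975, against 0.0929 to 0.905 elsewhere (2.79 ± 0.376). TDRKH and TDRD7, Tudor genes that are also used outside the germline, were past 2-fold higher as well. TDRKH had 47.9 and 45.5 CPM in H1975, against 7.3 to 42.6 elsewhere (1.32 ± 0.127), and TDRD7 51.5 and 51.4 CPM, against 9.3 to 36.4 (1.24 ± 0.113). PIWIL4, another piRNA-binding protein, had 2.58 and 3.58 CPM in H1975 but 5.42 and 5.34 in H820. MAEL, GTSF1, TDRD1 and TDRD12 had 0 counts in both H1975 libraries, and DDX4, the germ cell helicase, had 0.306 and 0.377 CPM. HENMT1, the methyltransferase that protects piRNA ends, was lower, with 1.27 and 1.23 CPM in H1975, against 1.95 to 31.4 elsewhere (-2.77 ± 0.213).

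Meiosis genes gave 24 tested of 35, with 13 higher and 5 lower (31% and 22.6% of all genes). Past 2-fold 9 were higher and 1 lower (13% and 6.24% of all genes), with a median of 0.942. HORMAD1, a protein of meiotic chromosome axes, had 25.7 and 25.5 CPM in H1975, against 0.241 and 0.201 in H23, 0 and 0 in EBC1 and 1.19 and 0.697 in H820 (7.85 ± 0.263, adjusted p against 2-fold = 5.91e-13). SMC1B, the meiotic cohesin subunit, had 31.2 and 40.4 CPM, against 0.169 to 10.4 (4.63 ± 0.214). MEIOB, which binds single-stranded DNA during meiotic recombination, had 6.72 and 8.02 CPM in H1975 and at most 0.201 elsewhere.

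H23 also carried meiosis genes, and against it 6 members were higher and 9 lower in H1975, near the 30.8% and 31.8% of all genes. TEX15 had 17.1 and 19.2 CPM in H1975, but 43.3 and 38.5 in H23, and MEIOC had 0.0437 and 0 CPM in H1975, against 43.7 and 43.0 in H23. SYCP1, SPO11, BOLL and DAZL had 0 counts in H1975. Cancer-testis antigen genes were mostly off: 39 and 40 of 50 had 0 counts in the untreated and treated H1975 library. Of the 11 tested, 4 were higher, all 4 past 2-fold, and 0 lower (31%, 13% and 22.6% of all genes). PRAME, the exception by level, had 66.8 and 66.5 CPM in H1975, 120 and 117 in H23, 0 and 0 in EBC1 and 44.4 and 48.8 in H820. Its difference of 4.31 ± 0.228 turned to -0.16 without EBC1. On the X chromosome 5 neighbouring genes tested were also past 2-fold higher and above every other library. They were CT45A1, CT45A2, CT45A4, CT45A7 and CT45A10 (134847185 to 134953994). These genes share a family, and no check for near-identical copies was available for them. The split of reads among them is therefore uncertain, and they may not be separate observations.

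Genes of this kind often have starts rich in CpG, the dinucleotide at which DNA can be methylated. In the same RefSeq table the median ratio of observed to expected CpG was 0.824 for 23 piRNA genes and 0.841 for 28 meiosis genes, against 0.634 over all genes and 0.544 for the interferon-stimulated genes. The windows of TDRD9 (chr14:103928206-103928505, plus strand, 41 CpG) and SMC1B (chr22:45413550-45413849, minus strand, 34 CpG) are shown with every CpG in capitals, as those of germline genes with high RNA in H1975.
TDRD9: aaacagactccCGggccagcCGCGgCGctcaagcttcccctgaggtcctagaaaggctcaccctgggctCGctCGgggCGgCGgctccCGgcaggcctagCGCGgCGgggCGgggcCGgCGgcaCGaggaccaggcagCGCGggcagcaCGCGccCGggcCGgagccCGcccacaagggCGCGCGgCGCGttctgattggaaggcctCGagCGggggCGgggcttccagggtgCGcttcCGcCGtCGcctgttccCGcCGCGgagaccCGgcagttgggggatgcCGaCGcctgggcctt
SMC1B: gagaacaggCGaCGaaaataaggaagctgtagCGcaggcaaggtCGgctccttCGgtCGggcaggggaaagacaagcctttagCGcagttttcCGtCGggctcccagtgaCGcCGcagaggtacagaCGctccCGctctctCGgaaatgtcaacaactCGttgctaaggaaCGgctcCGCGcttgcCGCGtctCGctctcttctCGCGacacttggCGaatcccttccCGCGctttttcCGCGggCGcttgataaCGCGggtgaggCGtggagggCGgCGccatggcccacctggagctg
The promoter window of DHRS2 held 0 CpG and those of PADI4 and TP63 held 7 each. For TP63 no other window was available, so any other start of the gene was not covered. CpG content was not compared between genes higher in H1975 and other genes. No DNA methylation was measured in the libraries used here.

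PADI4 and DHRS2 were the remaining genes that set the line apart. PADI4, an enzyme that turns arginine into citrulline in histones and is known from neutrophils, lies on chromosome 1 at 17634690 to 17690499. It had 2371 counts in the H1975 pair (55.6 and 51.8 CPM) and 2 counts over all 6 other libraries, a ratio of 2680 with a 95% Poisson counting interval of 741 to 22100. Its family lies in a row there, and all 4 tested members were higher in H1975 than the mean of the other lines (31% of all genes). PADI1, a form found in epidermis, was the exception by line, with 1.96 and 2.92 CPM in H1975, against 9.03 and 12.5 in EBC1 and at most 0.339 in H23 and H820. PADI3, the form of hair follicles, had 59.8 and 51.6 CPM in H1975, against 0.186 to 10.1 elsewhere (5.5 ± 0.182), and PADI2, the widely expressed form, 26.4 and 30.5 CPM, against 0.511 to 13.0 (2.71 ± 0.173). PADI6 had 0 counts in all 8 libraries.

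DHRS2, a short-chain dehydrogenase on chromosome 14 at 24105544 to 24114848, had 466 and 536 CPM in H1975, against 0.763 and 1.06 in H23, 1.34 and 1.79 in EBC1 and 0 and 0.325 in H820 (9.47 ± 0.167, adjusted p against 2-fold = 3.31e-17). Per kilobase of exon its mean level in H1975 was 290 CPM, above TDRD9 at 41.4 and below IFI27 at 477. Its neighbours DHRS4 and DHRS4L2 did not share the difference, with 10.7 and 12.1 CPM and 10.6 and 12.7 CPM in H1975, against up to 10 and 13.2 CPM elsewhere. Of 13 DHRS family genes tested, 6 were higher and 4 lower (31% and 22.6% of all genes). Past 2-fold 2 were higher and 1 lower, near the 13% and 6.24% of all genes. EGFR, the receptor gene for which the line is widely used, had 565 and 570 CPM in H1975, against 52.9 and 57.0 in H23, 246 and 262 in EBC1 and 223 and 272 in H820 (1.91 ± 0.12).

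By level, 13 protein-coding genes were on only in H1975, with at least 10 CPM in both of its libraries and at most 0.5 CPM in each of the other 6. PADI4 and RSAD2 are 2 of them. TH, which makes the first enzyme of dopamine synthesis, had 48.7 and 44.4 CPM in H1975 and at most 0.161 elsewhere, a ratio of 580 (counting interval 294 to 1340). DDC, the next enzyme of that path, had 0 and 0.0472 CPM in H1975. TGM5, a crosslinking enzyme of the epidermis, had 14.8 and 16.1 CPM, against at most 0.186 (ratio 220, interval 107 to 547).

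SLC5A4, a sugar-binding membrane protein, had 22.7 and 21.0 CPM in H1975 and 1 count over the others (ratio 2180, interval 391 to 86000). ZSCAN4, known from the early mouse embryo and from telomere maintenance in mouse stem cells, had 23.7 and 20.6 CPM, against at most 0.0897 (ratio 552, interval 216 to 2030). The zinc finger genes ZNF676, ZNF677, ZNF556 and ZNF560 were also in the set, with ZNF676 at 50.9 and 53.7 CPM in H1975 and at most 0.101 elsewhere. PSG4, ANXA8L2 and C1QTNF9B completed it, but each belongs to a family of near-identical copies, so the split of reads among copies is uncertain.

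The reverse set, silent in H1975 with at most 3 counts over its pair and at least 10 CPM in each other library, held 9 genes. BEX3, a small signalling adaptor gene on the X chromosome, had 0 counts in H1975, against 106 and 90.1 CPM in H23, 88.4 and 71.1 in EBC1 and 40.0 and 56.8 in H820. Set against a floor of 3 counts over the H1975 pair it was at least 1110-fold lower. MYEF2, a repressor of a myelin gene in mice, was at least 776-fold lower, with 0 counts in H1975 and 18.0 to 92.5 CPM elsewhere. ADCY1, an adenylate cyclase, was at least 743-fold lower, and STK26, a kinase of cell polarity, and APBA2, an adaptor of the amyloid precursor protein, at least 525-fold and 412-fold lower, all with 0 counts in H1975.

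MPDZ, a scaffold of tight junctions, had 1 count in H1975 and 27.5 to 89.5 CPM elsewhere, RNF217 had 2 counts and VWDE 1. H2AFY2, which encodes the histone variant macroH2A2, had 1 count, against 12.3 to 29.6 CPM elsewhere; the means of the others over H1975 gave a ratio of 893 (interval 160 to 35300). Just outside this set stood FARP1, a guanine nucleotide exchange factor, with 0.175 and 0.0943 CPM in H1975, against 53.1 to 142 elsewhere (-9.32 ± 0.29). ANTXR1, the anthrax toxin receptor and a matrix receptor, had 0.131 and 0.283 CPM in H1975, against 20.3 to 36.5 (-7.09 ± 0.272).

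**Figure D4:**
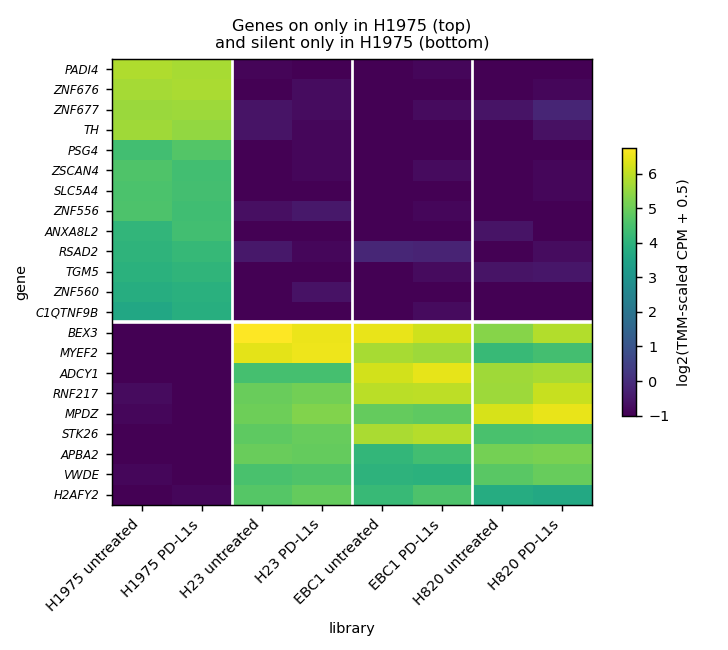
Level of the 13 genes on only in H1975 (upper block) and the 9 silent in it (lower block), as log2(TMM-scaled CPM + 0.5), in the 8 libraries. The blocks were chosen by level, so the contrast is their definition; within each block the untreated and PD-L1s libraries of a line have like colours.

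The silent genes on the X chromosome were not all alone in their region. TCEAL8, BEX2, TCEAL9 and BEX3, neighbours among the genes tested (102507923 to 102633005), were all past 2-fold lower and below every other library. The same held on chromosome 17 for SKAP1, HOXB2, HOXB3, HOXB4, HOXB5 and HOXB6 (46210802 to 46682354), the last 5 being homeobox genes that record body position. It also held on chromosome 19 for 8 neighbours from SAMD4B to TIMM50 (39833082 to 39981528), among them RPS16, a ribosomal protein gene, and PAF1 and SUPT5H of transcription elongation.

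In the upward direction chromosome 19 stood out after its values were seen. A stretch of 45 neighbouring protein-coding genes tested, from MAU2 to ZNF254 (19431490 to 24312763), was past 2-fold higher and above every other library without a gap, and a second of 24 genes ran from ZNF83 to MYADM (53097313 to 54379691). Many zinc finger genes of this chromosome belong to the KRAB family of DNA-binding repressors, which recruit TRIM28. Of 264 zinc finger genes on the chromosome, taken by symbol, 256 were tested. Of these 211 were called higher and 13 lower (31% and 22.6% of all genes). Past 2-fold 162 were higher (63.3%) and 3 lower, with a median of 1.66. The other 986 protein-coding genes of the chromosome had 191 past 2-fold higher (19.4%), 84 lower and a median of 0.31.

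These zinc finger genes are alike in sequence and reads can fall on a wrong copy, so they are also given as a sum, which was 11700 and 12200 CPM in H1975, against 3770 and 3700 in H23, 2560 and 2660 in EBC1 and 5580 and 5540 in H820. TRIM28 itself lies near the end of the long arm within 4 neighbours that were higher (59055836 to 59084942), and had 473 and 450 CPM in H1975, against 92.8 to 333 elsewhere (1.34 ± 0.135, adjusted p against 2-fold = 0.0199). Its call past 2-fold was lost with the DESeq2 test, without H820, and without any of the treated H23, untreated EBC1 or untreated H1975 libraries. Over whole chromosomes, chromosome 22 had the highest median difference (0.83) with 25.9% of its genes past 2-fold higher, followed by chromosome 19 (0.58, 28.8%). Chromosomes 12 (-0.55) and 4 (-0.52) had the lowest medians, and chromosome 8 the largest share past 2-fold lower (15.3%). DNA copy number was not measured in these libraries, and its part in these regional differences was not tested.

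**Figure D5:**
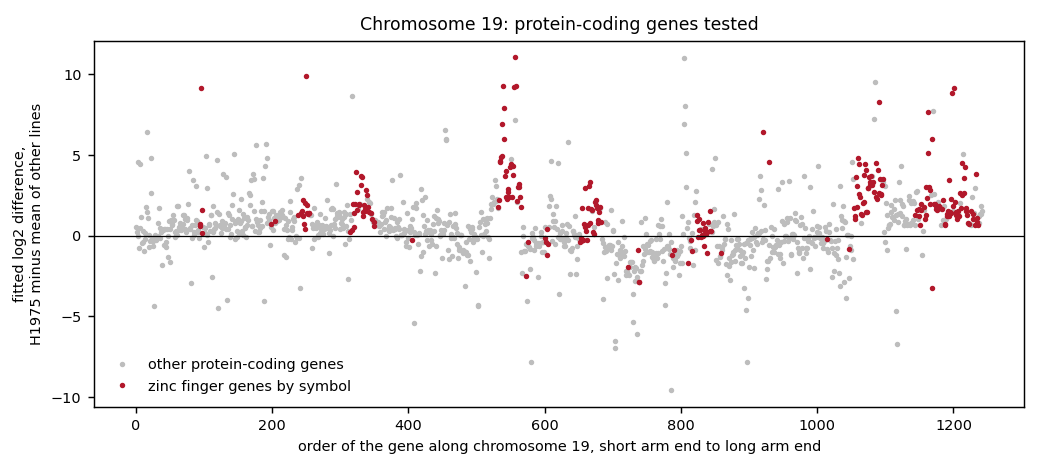
Fitted log2 difference, H1975 minus the mean of the other lines, of the 1242 protein-coding genes tested on chromosome 19, in their order along it; zinc finger genes are red. The red points form blocks above 0, including the stretches of 45 and 24 genes, and the 8 neighbours from SAMD4B (order 720) to TIMM50 (order 727) lie below it.

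Epigenetic writers and erasers were called about as often as other genes over both directions together, but less often higher and more often lower. Of 21 genes for DNA and histone methylation and deacetylation tested, 3 were higher and 8 lower, against 31% and 22.6% of all genes, and past 2-fold TRIM28 alone was called. DNMT3A had 61.6 and 54.6 CPM in H1975, against 66.1 to 160 elsewhere, and HDAC1 69.6 and 68.5 CPM, against 114 to 176.

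Markers of cells other than tumour cells were checked in the same libraries. Of 16 immune markers 7 were tested, with 5 higher and 1 lower (31% and 22.6% of all genes). The list summed to 154 and 163 CPM in H1975, against 8.63 to 153 elsewhere. CD68, which has a near-identical copy, made most of it, with 122 and 132 CPM in H1975 and up to 152 elsewhere, and CSF1R, a macrophage growth factor receptor, had 22.7 CPM in both H1975 libraries and at most 0.976 elsewhere (6.54 ± 0.257). The leukocyte gene PTPRC had 0.218 and 0.330 CPM in H1975, and CD2, MS4A1 and NKG7 had 0 counts. Of 9 fibroblast markers 8 were tested, with 3 higher and 1 lower (31% and 22.6% of all genes). They summed to 47.6 and 46.9 CPM in H1975, against 23.4 to 59.5, and DCN, LUM and COL3A1 had 0 counts. Of 7 endothelial markers only 2 were tested, and both were higher past 2-fold (13% of all genes). The endothelial list summed to 11.5 and 11.2 CPM in H1975, against 0.192 to 8.18, and EMCN and CLDN5 had 0 counts. Red cell markers summed to 0.742 and 0.472 CPM, against 0.241 to 19.8.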

How the data were processed

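RNA of 8 sphere libraries of 4 lines was sequenced after ribosomal RNA depletion with a stranded Illumina total RNA kit, per the labels' protocols. The authors deposited raw read counts per gene. The tools were STAR 2.7.3a for alignment and featureCounts (Subread 2.0.0), on the build GRCh37 (hg19), per the submitters' processing notes. The counter ran reverse-stranded over exons grouped by gene and on primary alignments only, per the file headers, and pairs overlapping several genes were counted for each, so overlapping genes share reads. Exonic lengths (the other deposited column) served only for levels per kilobase. Coordinates of genes are those of the files.

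From the counts, edgeR 4.0.16 (R 4.3.3) gave TMM-scaled CPM and a quasi-likelihood F test with cell line and treatment as terms over all 8 libraries. The contrast was H1975 minus the mean of H23, EBC1 and H820, and H1975 minus each line. Genes passed filterByExpr at a minimum count of 10 (24185 of 60106), p-values were Benjamini-Hochberg adjusted over all of them and two-sided, and the 2-fold test was glmTreat. The mean is of log2 levels, so a line near 0 weighs heavily; values by line stand beside it. On simulated data, 96 of 100 genes changed by log2 1.5 and 100 of 100 changed by log2 3 were called, and 23 of 22553 unchanged ones. Past 2-fold these were 46, 99 and 0. Apart from the changed genes, the simulated lines shared the same mean and had no treatment effect, unlike these data, in which 53.6% of genes were called.

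The 24 gene lists (537 of 538 symbols matched) and the genes described were chosen with earlier results of these data known. Named were 8 preset genes, the 12 highest and 12 lowest by rule, and list members past 2-fold or near 0; partners, runs of neighbours and chromosome 19 were added after their values were seen. Lists got counts and medians, no set test. Counting intervals and the floor of 3 counts cover counting error only. Near-identical copies are genes whose transcripts matched at 95% identity or more over at least 50% of the transcript. Alternatives were other scalings, DESeq2 1.42.0, limma 3.58.1 (voom), other filters, thinning to 5559870 counts, no treatment term, and leaving out libraries or lines. Some results are not reported here.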

Additional observations from a re-analysis of the deposited data

How the results depend on the processing

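Depth limited low genes most, since the untreated EBC1 and H820 libraries held 5894946 and 5559870 counts, and leaving out both, a choice made after seeing the totals, moved none of the counts given in the next paragraph by over 1.5 times. With 1 library per line and condition, the spread behind each p-value comes from 3 residual degrees of freedom shared by all lines. The labels carry no replicate numbers. Line and treatment were both terms of the fit, so that spread also holds any response to treatment that differs between lines.

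Leaving out 1 library at a time gave 5634 to 8211 genes called higher and 3443 (without the treated H1975 library) to 6012 called lower, against 7486 and 5469. Past 2-fold it gave 2592 to 3422 higher and 1075 to 1627 lower, against 3142 and 1509. It gave 11936 to 16783 genes called against H23, 9135 to 14309 against EBC1 and 10266 to 13492 against H820. List counts past 2-fold higher ran from 12 to 16 (squamous), 9 to 11 (alveolar), 51 to 53 (interferon-stimulated), 4 to 6 (piRNA) and 8 to 9 (meiosis).

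The DESeq2 test put 2015 genes past 2-fold higher. Leaving out EBC1 put 2452 past 2-fold lower, and leaving out H23 left 34 interferon-stimulated genes past 2-fold higher. The 6 piRNA genes became 3 with the DESeq2 test, with limma-voom and with thinned libraries. At 5 and 20 CPM, 26 and 7 genes were on only in H1975 and 18 and 5 silent. Of 1427 differences of 68 genes under the alternatives, 1423 kept direction and side of the threshold. CD274 turned to -1 without H23, VIM to -0.14 without H820 and PRAME to -0.16 without EBC1; CDH1 kept its direction but was not called without H23. The causes were not tested. The median over all genes moved between -0.04 and 0.10.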
